A study of Mus musculus with 2 samples.

Results

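The genes described here encode the collagens, the laminins, the matrix metalloproteinases and the tissue inhibitors of those proteases. They were taken by name from a mouse expression array and comprised 76 of the 27835 genes on it: 40 collagen chains, 11 laminin chains, 21 matrix metalloproteinases and 4 tissue inhibitors, with 134 probes in all. A further name that begins with the letters of a collagen chain, Col4a3bp, denotes a ceramide transfer protein now called Cert1, and it was kept out of every count. The brightest probe stood for each gene.

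RNA came from the thymus of 6-month-old mice on a C57BL/6 background, either heterozygous carriers of a Pla2g10 transgene (Pla2g10-Tg/+), described as overexpressing, or littermates without it. Each genotype was represented by a pool of RNA from 4 mice, of which 500 ng was labelled. On array 1 the transgenic pool was labelled with Cy5 (red) and the control pool with Cy3 (green), and array 2 exchanged the dyes. The labels do not say whether the arrays hold separate pools, so 1 pool per genotype was assumed, hybridised again with the dyes exchanged. The promoter of the transgene and the cells in which it acts are not given in the sources used here.

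Collagens form the fibrils and sheets of connective tissue. Fibrillar collagens such as types I and III give tensile strength, type IV forms the network of basement membranes, and laminins, each made of an alpha, a beta and a gamma chain, form a second basement membrane network to which epithelial and endothelial cells attach. Matrix metalloproteinases cut these proteins, some as secreted and some as membrane-anchored enzymes, and the tissue inhibitors (Timp genes) block them. In the thymus, matrix is laid down mainly in the capsule, the septa, the vessel walls and the reticular fibres.

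Values below are log2 ratios of transgenic over control on each array, and their mean ± the SD between the 2 arrays. With 1 pool per genotype, as assumed, this SD reflects labelling and hybridisation and does not measure the variation among mice. Intensities are normalised signals in arbitrary units that include an added offset of 50, so that negative-control spots had a median of 54.2 to 54.4 in the 4 channels. The offset draws ratios of dim probes towards 0. Intensities of different probes are not comparable with each other. A gene was called measured when the scanner software marked its probe as well above background in both arrays' channels of at least 1 genotype. It was called higher or lower when it differed at least 1.2-fold in 1 direction on each array.

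The array pair as a whole set the scale. Of transcript spots, the transgenic channel of arrays 1 and 2 had 34.1% and 28.5% well above background and the control channel 29.0% and 33.2%, so red exceeded green on both. Thymus identity was visible in 18 of 19 immature thymocyte markers and 11 of 14 thymic epithelial markers that were measured. Rag2, a recombinase gene, and Foxn1, the transcription factor of thymic epithelium, were well above background in no channel. The Pla2g10 probe was itself well above background in 0 of 4 channels, with intensities of 52.0 and 56.4 in the transgenic pool and 54.2 and 57.2 in the control pool. The sources used here do not say whether the transgene's transcript holds this probe's target, so the probe does not check the labels.

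Most of the matrix genes were not measured. The probe was well above background in all 4 channels for 15 genes, in 1 to 3 channels for 7 and in none for 54. That left 16 measured genes, 21.1% of the 76, against 33.8% of all genes on the array. They were 9 of 40 collagens, 2 of 11 laminins, 2 of 21 matrix metalloproteinases and 3 of 4 tissue inhibitors.

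**Figure D1:**
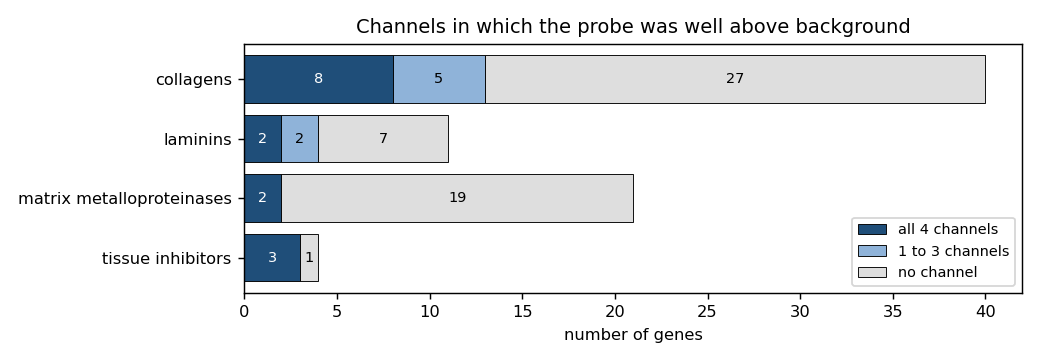
Number of genes of each family whose brightest probe was well above background in all 4 channels, in 1 to 3 channels or in no channel. Of 21 matrix metalloproteinases, 19 were in no channel, as were 27 of 40 collagens, 7 of 11 laminins and 1 of 4 tissue inhibitors.

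None of the 16 measured matrix genes differed at least 1.2-fold on both arrays. Over all 9415 measured genes, 140 were higher by this rule (1.49%) and 96 lower (1.02%). At these shares a count of 0 among 16 genes is no result about them. The members were also dimmer, with a median signal above local background of 52.9, against 95.8 for all measured genes. The offset draws dimmer probes further towards 0, so the shares are not matched for brightness. No member differed at least 2-fold in the mean, against 3 genes of all (0.0319%) that were higher and 0 that were lower. The median log2 ratio of the 16 genes was 0.07, against -0.002 over all measured genes, and the means ran from -0.09 to 0.21. Of the 16, 7 were above 0 on both arrays and 2 below 0 on both, against 28.4% and 29.0% of all measured genes. Together 56.3% of the members kept their side of 0 between the arrays, close to the 57.4% of all genes. Of the members below 0 on both, Col2a1 counted as measured through the control pool alone, in which it read higher. The log2 ratios of the 2 arrays correlated at -0.151 (Pearson) across the 16 members, against 0.313 across all measured genes. In 10 of the 16 the SD between arrays exceeded the size of the mean. In a pooled tissue, fewer cells of a type and less RNA per cell cannot be told apart in any of these values.

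The normalised intensities of the pools did not overlap for 6 members that were higher in the transgenic pool and 2 that were lower, against 23.1% and 23.9% of all measured genes. The 6 were Mmp14, Col18a1, Col1a2, Col3a1, Col4a4 and Timp3, and the 2 were Col2a1 and Col7a1. The Col2a1 probe was well above background in 2 control channels but in only 1 transgenic channel. It thus counted as measured only through the pool in which it was higher, so its place among the 2 is not independent of that filter. A limma fit that took each array as its own measurement, and so knows the spread between arrays alone, gave an adjusted p under 0.05 for 0 of the 16, against 1.77% of all measured genes. The adjusted p ran from 0.345 to 0.962 in that test, and Mmp14 alone had an unadjusted limma p under 0.05 (0.0356).

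**Figure D2:**
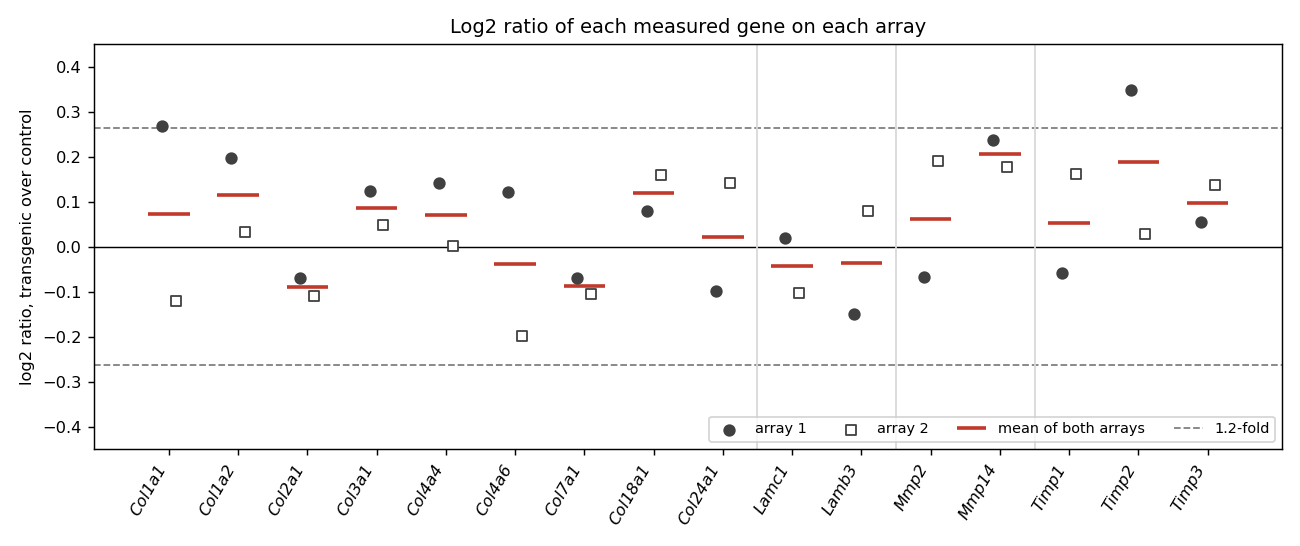
Log2 ratio of transgenic over control for each measured gene on array 1 (filled circles) and array 2 (open squares), with the mean of both (red bars) and dashed lines at 1.2-fold. No gene lies beyond a dashed line on both arrays; Col1a1 and Timp2 do so on array 1 only.

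Type I and type III collagen transcripts, the main fibrillar collagens of fibroblasts, were measured in both pools. Col1a1, the alpha 1 chain of type I collagen (probe on mm8 chromosome 11, 94767851 to 94767910), read 163 and 134 in the transgenic pool on arrays 1 and 2, against 136 and 146 in the control pool. The pools overlapped, and the log2 ratio was 0.27 on array 1 and -0.12 on array 2, with a mean of 0.07 ± 0.27. Its partner Col1a2, the alpha 2 chain (chromosome 6, 4490619 to 4490678), read 167 and 163 in the transgenic pool, against 146 and 159 in the control pool. The ratio kept its sign but was 0.20 on array 1 and 0.03 on array 2, a mean of 0.12 ± 0.12. Col3a1, the type III chain that assembles into fibrils with type I (chromosome 1, 45293290 to 45293349), read 206 and 195 in the transgenic pool, against 189 and 188 in the control pool. Its log2 ratio of 0.09 ± 0.05 corresponds to 1.06-fold. Col1a1 thus changed sign between the arrays, while Col1a2 and Col3a1 were slightly above 0 on both. Dye orientation and array changed together, so their parts in this cannot be told apart.

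Of the other 8 fibrillar chains, 2 were measured. Col2a1, the cartilage collagen, read 76.4 and 77.4 in the transgenic pool, against 80.1 and 83.5 in the control pool, with a log2 ratio of -0.09 ± 0.03. Another of its 3 probes was well above background in all 4 channels and gave 0.01, so the probes of Col2a1 differ in sign. Col24a1 read 70.9 and 81.5 in the transgenic pool, against 75.9 and 73.9 in the control pool, and its ratio changed sign between the arrays (mean 0.02 ± 0.17). Type V and type XI collagens, which help to set fibril diameter, were not measured: Col11a2 was well above background in 2 channels, Col5a1 in 1, and Col5a2, Col5a3 and Col11a1 in none.

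Basement membrane collagen was represented by 2 of 6 type IV chains. Col4a4 (chromosome 1, 82331868 to 82331929) read 168 and 160 in the transgenic pool, against 153 and 159 in the control pool. The log2 ratio was 0.14 on array 1 and 0.002 on array 2, a mean of 0.07 ± 0.10. Col4a6 (chromosome X, 136413257 to 136413316) read 99.3 and 87.0 in the transgenic pool, against 91.4 and 99.8 in the control pool, and its ratio was 0.12 on array 1 and -0.20 on array 2. Both arrays therefore gave small and, for Col4a6, opposite ratios. The chains that form the widespread type IV network, Col4a1 and Col4a2, were well above background in 1 and 0 channels. Col4a1 read 73.0 and 69.8 in the transgenic pool, against 73.0 and 65.1 in the control pool.

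Among collagens outside the fibrils and type IV, 2 of 23 chains were measured. Col18a1 encodes the basement membrane collagen whose end fragment is endostatin, an inhibitor of blood vessel growth. It read 88.9 and 89.8 in the transgenic pool, against 84.2 and 80.4 in the control pool, with a log2 ratio of 0.12 ± 0.06. The other Col18a1 probe was well above background in no channel and gave a mean of -0.03. Col7a1, the anchoring fibril collagen that ties epithelium to the underlying matrix, read 87.9 and 86.1 in the transgenic pool, against 92.2 and 92.6 in the control pool. At -0.09 ± 0.03 it was below 0 on both arrays. Type VI collagen, a filament of many connective tissues, was not measured, as Col6a3 was well above background in 1 channel and Col6a1 and Col6a2 in none. Neither was Col17a1, the transmembrane collagen of basal epithelial cells, nor any of the 9 fibril-associated chains of the array.

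**Figure D3:**
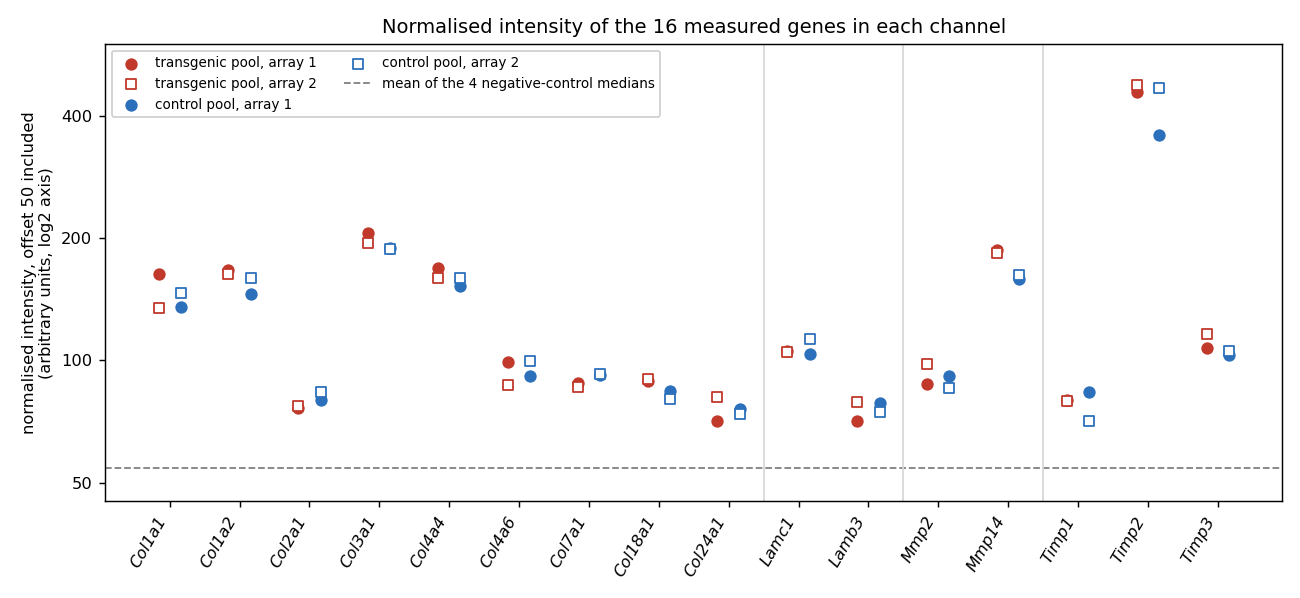
Normalised intensity of each measured gene in the transgenic pool (red, left of each pair) and the control pool (blue, right), on array 1 (filled circles) and array 2 (open squares), on a log2 axis with the offset of 50 included. The dashed line is the mean of the 4 negative-control medians; Mmp14 read 186 and 184 in the transgenic pool, above 158 and 163 in the control pool.

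Laminins were close to 0. Lamc1, the gamma chain found in most laminins (chromosome 1, 154981243 to 154981301), read 105 and 105 in the transgenic pool, against 104 and 113 in the control pool. The log2 ratio was -0.04 ± 0.09. Lamb3, the beta chain of the laminin of epithelial attachment sites, read 70.8 and 78.9 in the transgenic pool, against 78.6 and 74.7 in the control pool. Its mean was -0.04 ± 0.16, with array 1 at -0.15 and array 2 at 0.08. Neither measured laminin kept its sign between the arrays.

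No laminin alpha chain (Lama1 to Lama5) was well above background in any channel. Lamb1-1, now named Lamb1, the beta chain that pairs with Lamc1 in many laminins, was well above background in 1 channel only, the transgenic channel of array 1. It read 73.8 and 70.1 in the transgenic pool, against 65.6 and 62.6 in the control pool, with log2 ratios of 0.17 and 0.16. With an offset of 0 they were 0.63 and 0.70, from a probe that was not well above background in the other 3 channels. Lamb1-1 was chosen for mention after its values were seen. In all, 5 genes were well above background in a single channel, and in each the channel was the transgenic one of array 1, which had the highest share of spots above background of the 4. Col4a1, Col5a1 and Col6a3 were among them. The part that the signal level of that channel played in these detections was not tested.

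Of the proteases, Mmp14 had the highest log2 ratio of the 16 genes as the mean of both arrays with the offset of 50. Col18a1 was higher with an offset of 0 and in the software's ratios, Timp2 and Col1a1 on array 1 alone, and Mmp2 on array 2 alone. Mmp14 is a membrane-anchored collagenase that also activates the gelatinase Mmp2 (Mmp14 probe on chromosome 14, 53395337 to 53395396). It read 186 and 184 in the transgenic pool, against 158 and 163 in the control pool, and the pools did not overlap. The log2 ratio was 0.24 on array 1 and 0.18 on array 2, a mean of 0.21 ± 0.04, or 1.15-fold, which did not reach 1.2-fold on either array. Of all measured genes, 6.01% had a higher mean. With an offset of 0 the ratios were 0.31 and 0.28 and Mmp14 passed 1.2-fold on both arrays, when 5.47% of all measured genes did so in that direction and 3.70% in the other.

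Mmp2, the gelatinase made by fibroblasts (chromosome 8, 95742069 to 95742128), read 87.3 and 97.8 in the transgenic pool, against 91.6 and 85.7 in the control pool. Its log2 ratio was -0.07 on array 1 and 0.19 on array 2, so the arrays disagreed in sign. The other gelatinase, Mmp9, a product of neutrophils and macrophages, was well above background in no channel and read 66.6 and 66.8 in the transgenic pool, against 63.3 and 65.1 in the control pool. The collagenases Mmp1a, Mmp8 and Mmp13, the stromelysins Mmp3 and Mmp10, matrilysin (Mmp7) and the macrophage elastase Mmp12 were likewise well above background in no channel.

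The tissue inhibitors were the family with the largest share of measured genes. Timp2, which blocks Mmp2 and also takes part in its activation by Mmp14, lies on chromosome 11 (118117922 to 118117981). It read 456 and 477 in the transgenic pool, against 359 and 468 in the control pool. Array 1 gave a log2 ratio of 0.35 and array 2 one of 0.03, a mean of 0.19 ± 0.23, so the difference rests on array 1. Timp3, the inhibitor that binds to the matrix itself (chromosome 10, 85778750 to 85778809), read 107 and 116 in the transgenic pool, against 103 and 106 in the control pool. Its ratio of 0.10 ± 0.06 was above 0 on both arrays. Timp1, an inhibitor induced in inflammation (chromosome X, 20031508 to 20031566), read 80.1 and 79.3 in the transgenic pool, against 83.4 and 70.9 in the control pool, with a ratio of -0.06 on array 1 and 0.16 on array 2. Timp4 was well above background in no channel.

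The 60 members that were not measured gave log2 ratios from -0.08 to 0.17, and 0 of them passed 1.2-fold on both arrays. Their intensities stayed at or below 77.4, and with the offset of 50 included their ratios understate any difference. Of the 43 members with more than 1 probe, Col2a1 alone had more than 1 measured probe. Over all 134 probes the log2 ratio ran from -0.09 to 0.21, and 0 passed 1.2-fold on both arrays.

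Genes that act on or beside this matrix were few among those measured, and at the shares of all genes given above a count of 0 in so short a list is no result about it. Of 28 genes on the array that make, process or cross-link collagen, 9 were measured and 0 passed 1.2-fold in either direction, with a median log2 ratio of -0.005. Serpinh1, the collagen-specific chaperone, was at -0.08 ± 0.07 and Pcolce, an enhancer of procollagen processing, at -0.005 ± 0.02. Of 15 other basement membrane genes, 5 were measured and 0 passed, with Nid1, which links laminin to type IV collagen, at 0.11 ± 0.12 and Sparc, a collagen-binding glycoprotein, at -0.06 ± 0.15. Of 18 collagen and laminin receptor genes, 9 were measured and 0 passed. Their median was 0.11, but -0.03 on array 1 and 0.08 on array 2, with the laminin receptor chain Itga6 at 0.01 ± 0.09 and the collagen receptor kinase Ddr1 at 0.18 ± 0.18. Of 24 related metalloproteinase genes (ADAM and ADAMTS families and their cofactors), 6 were measured and 0 passed, and Adamts2, which trims procollagen, was at 0.13 ± 0.004. The genes named in this paragraph, none of which passed, were picked for their roles after their values were known.

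Markers of the cells that could supply the matrix did not all stay near 0. Their lists were chosen with earlier results of these data known, so the counts are descriptive. Over all measured genes, 1.49% were higher and 1.02% lower by the same rule. Of 20 fibroblast markers other than the matrix genes themselves, 9 were measured, 3 were higher and 1 lower, with a median of 0.23. The proteoglycan gene Dcn read 389 and 376 in the transgenic pool, against 266 and 268 in the control pool, a log2 ratio of 0.52 ± 0.04, and Mgp, a matrix protein that inhibits calcification, was at 0.52 ± 0.19. S100a4 was at 0.58 ± 0.05. The lower one was Thy1 at -0.34 ± 0.09, which thymocytes express abundantly. Which cells supplied these transcripts, the higher ones included, was not tested, so the counts are not a measure of fibroblasts. Pdgfrb, named after its value was seen, was at 0.21 ± 0.15, and Pdgfra, Dpt and Fbn1 were well above background in no channel. The summed intensity of the whole fibroblast list was 9314 and 9784 in the transgenic pool, against 10556 and 10596 in the control pool, a sum that Thy1 dominates. Whether Dcn or Mgp differ from Col1a1, Col1a2 or Col3a1 in their ratio was not tested, since genes of 1 pool are not replicates.

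Adipocyte markers, which bear on fat-derived matrix, were higher in 6 of 9 measured genes, with a median of 0.44 and summed intensities of 2819 and 2481 in the transgenic pool, against 1753 and 1682 in the control pool. Cfd, the fat cell protease adipsin, was at least 2.97-fold higher and Car3, a carbonic anhydrase, at least 1.57-fold higher, both bounds because the control pool's probe was not well above background. Cfd and Car3 thus counted among the 9 measured genes only through the transgenic pool, in which they were higher. The count of 6 and the median are therefore not independent of that filter. Of the list's other genes, Plin, Retn and Lep were well above background in no channel. Thymic epithelial markers were higher in 2 of 11 measured genes, with a median of 0.19 and sums of 16674 and 16840 in the transgenic pool, against 15757 and 14140 in the control pool. Those were the basal keratin gene Krt5 at 0.68 ± 0.10 and the epithelial transcription factor gene Trp63 at 0.54 ± 0.27. Immature thymocyte markers were lower in 6 of 18, with a median of -0.26 and sums of 32972 and 33352 in the transgenic pool, against 40277 and 40620 in the control pool. Ccr9, a chemokine receptor gene, was at -0.53 ± 0.10 and Cd8a, a coreceptor gene, at -0.51 ± 0.001. Of 14 neutrophil markers, listed for Mmp8 and Mmp9, 6 were measured and 8 were well above background in no channel. Of the 6 measured, 3 were higher, and their median was 0.35. Sums over the list were 2118 and 1980 in the transgenic pool, against 1634 and 1566 in the control pool. The calcium-binding protein gene S100a9 was at 0.62 ± 0.01 and Chi3l3 at 0.38 ± 0.02. Macrophage markers were higher in 1 of 12, the lysosomal protease gene Lgmn (0.38 ± 0.07), with a median of -0.004 and sums of 2866 and 2810 in the transgenic pool, against 2686 and 2661 in the control pool. Smooth muscle and pericyte markers passed in 0 of 5 measured genes, of 13 on the array, with a median of -0.05. Endothelial markers passed in 0 of 3, of 14 on the array, with a median of 0.04. The part of these cell markers in the ratios of the matrix genes was not tested.

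**Figure D4:**
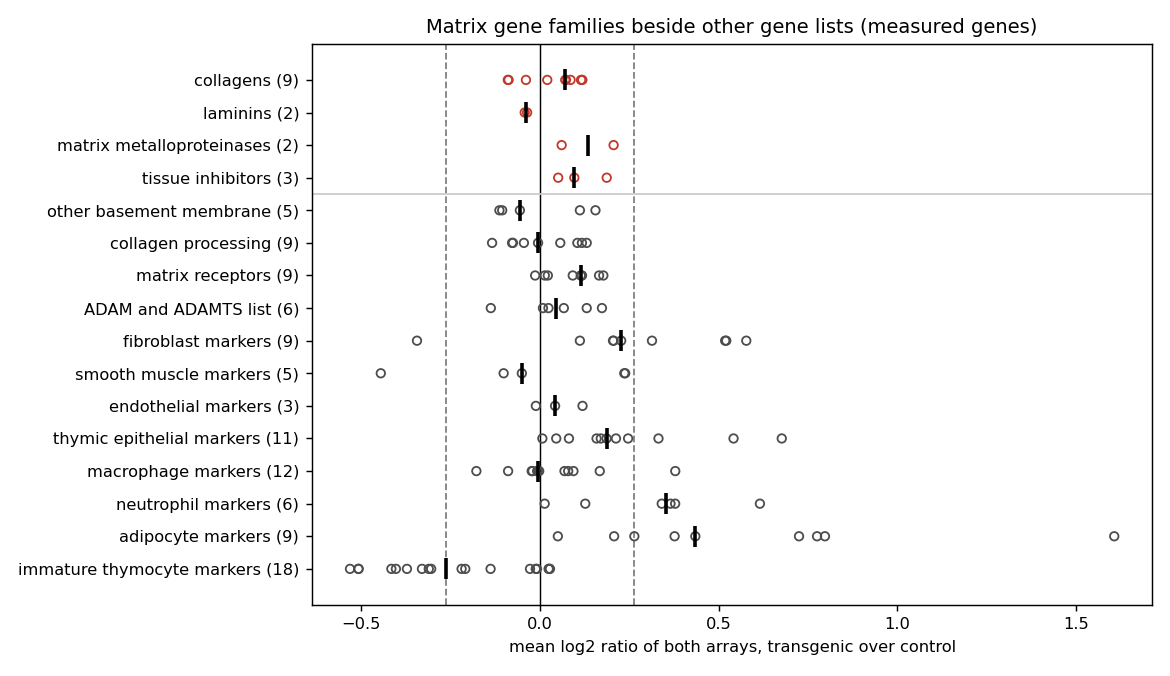
Mean log2 ratio of transgenic over control for each measured gene (circles; matrix families in red) with the median of each list (black bar) and dashed lines at 1.2-fold; the number of measured genes is in brackets. The means of all 16 matrix genes lie between the dashed lines. By the call on both arrays, 6 of 9 adipocyte markers were higher and 6 of 18 immature thymocyte markers lower. All measured genes gave 1.49% higher and 1.02% lower by that call. The lists were chosen with earlier results of these data known. Among the 9 adipocyte markers, Cfd and Car3 counted as measured only through the transgenic pool, in which they were higher.

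The offset set the size of these ratios more than their direction. With an offset of 0, all 16 measured genes kept the sign of their mean and lay farther from 0, and the scanner software's own ratios did so for 15. Col18a1 had a mean of 0.30 with an offset of 0 and 0.36 in the software's ratios, and Col2a1 -0.26 and -0.34. The other Col18a1 probe, well above background in no channel, gave -0.14 and -0.25 under these settings. Under both settings Mmp14 was the only one past 1.2-fold on both arrays. In the software's ratios 6.33% of all measured genes were higher by that rule and 4.39% lower, and the series value table gave the same 6.33% and 4.39%. On array 1 alone, Col1a1 and Timp2 were past 1.2-fold, where 8.18% of all measured genes were higher and 6.33% lower.

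**Figure D5:**
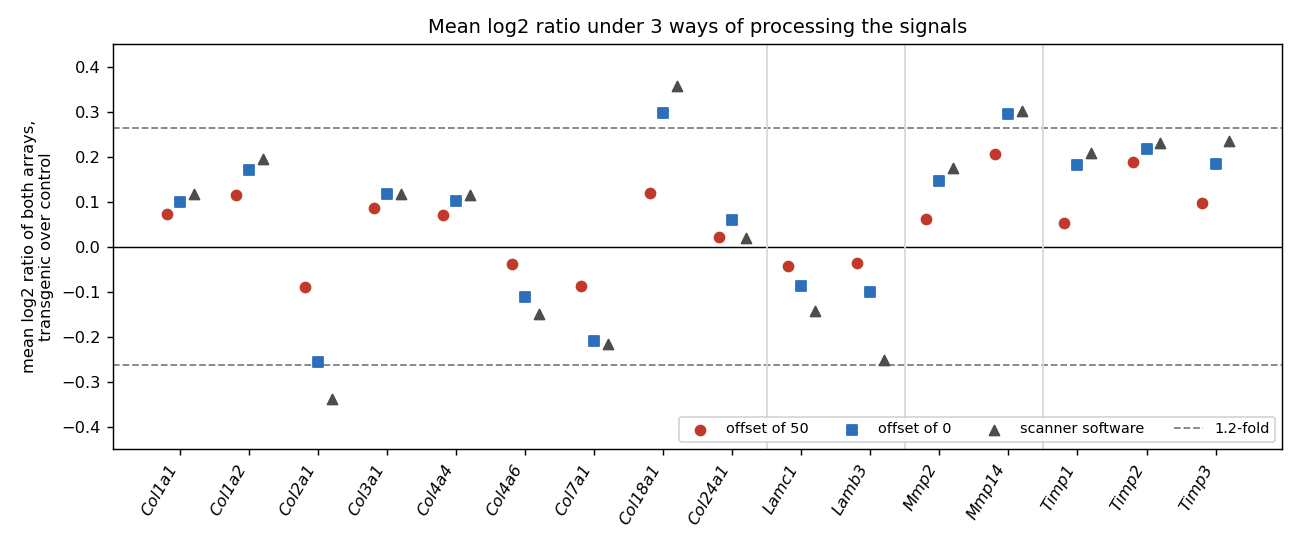
Mean log2 ratio of both arrays, transgenic over control, for each measured gene with an offset of 50 (red circles), with an offset of 0 (blue squares) and from the scanner software (grey triangles), with dashed lines at 1.2-fold. Mmp14 is at 0.21, 0.30 and 0.30, and Col18a1 at 0.12, 0.30 and 0.36.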

How the data were processed

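Each of the 2 two-colour arrays held 41534 spots for transcripts. The deposited scanner files give, per the file headers, mean spot and median local background intensity for both channels, extracted with Feature Extraction 9.5.1.1. Its processed intensity (spatial detrending, lowess, surrogates for dim spots) underlies the deposited log10 ratios of red over green, per the file headers, and the deposited series table holds log10 of the same signals, not turned for the dye swap. Mean signals were corrected by normexp (offset 50) and normalised by loess with control and outlier spots at weight 0 (limma 3.58.1, R 4.3.3). Outlier spots were left out, spots of a probe averaged and array 2 turned, giving log2 ratios. Channel intensities were scaled by Aquantile. Probe positions are on mm8, whose annotation was not used here. Of 76 members, 75 kept their name in RefSeq (GRCm38.p6). Genes named were every measured member, and others by class, channel or list. Members and lists were chosen with earlier results of these data known. The calls were also run on simulated data, in which every planted change was larger than 1.2-fold. That run does not check calls near 1.2-fold, and its outcome is not used here. Alternatives changed the offset, background, normalization, filter, probe choice, ratio source and arrays. Values of 1 member are not reported here.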

Additional observations from a re-analysis of the deposited data

How the results depend on the processing

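The count of 0 members at least 1.2-fold higher was 1 (Mmp14) with an offset of 0, with the scanner software's ratios and with the series value table, when 5.47%, 6.33% and 6.33% of all genes were higher. It was 0 to 2 with 1 array left out; the 2 were Col1a1 and Timp2 on array 1 alone, where 8.18% of all genes were higher. The count of members lower, and that of members at least 2-fold different, stayed at 0 under each of the 10 alternatives run. The median log2 ratio of 0.066 was 0.11 with an offset of 0, 0.085 without background correction, 0.044 with median centring (under which the arrays correlated at -0.452 across genes), 0.12 with the software's ratios, 0.12 with the series table, 0.021 with no filter on dim probes, and 0.041 to 0.067 with 1 array left out. With the looser flag for signal that is positive and significant against background, 34 of 76 members counted as measured. The cause of these differences was not tested. Over all 9415 genes, the 140 higher and 96 lower became 515 and 348 with an offset of 0, 596 and 413 with the software's ratios or the series table, 14 and 3 with median centring, and 349 and 410 or 770 and 596 with replicate 1 or 2 left out. No paired analysis was possible because the arrays form a single group with no other group to share a replicate number; each ratio is already taken within an array. Dim signal limits the 60 members that were not measured.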
